A study of Drosophila melanogaster with 6 samples.

Results

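Autophagy delivers cytoplasm and protein aggregates to lysosomes, where proteases and glycosidases digest them. The digestion needs an acidic interior, which the vacuolar proton pump (V-ATPase) maintains with a cytoplasmic V1 sector that splits ATP and a membrane Vo sector that carries protons. In neurons, which do not divide and cannot dilute what they fail to degrade, these systems are known to clear misfolded proteins, and polyglutamine proteins are among their substrates. The genes described here are those on the array whose annotated symbol begins with Atg and a digit, with Vha or with Npc2, or is cathD, CtsB, Cp1, Lamp1, ref(2)P, Npc1a, Hexo1 or Hexo2. The rule found 71 single-gene probe sets of 63 genes, out of 12443 single-gene probe sets in all. They divide into 29 V-ATPase genes, 20 Atg genes, 9 sterol carrier genes, the protease genes cathD and CtsB, Lamp1, ref(2)P and Hexo2. No probe set carried the symbol Cp1, an older name of CtsL1, which is therefore described with the other genes of the pathway, and Hexo1 is not analysed here.

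RNA of whole fly heads was measured on 6 Affymetrix arrays, 3 of tim-MJD flies and 3 of wild type flies. The tim-MJD flies carried the Tim-gal4 driver, in which the promoter of the clock gene timeless directs the yeast activator GAL4, and a UAS transgene of MJD, the protein of Machado-Joseph disease, which GAL4 turns on. The labels of tim-MJD replicates 1 and 2 name the transgene UAS-MJD78Q, which denotes a stretch of 78 glutamines, and that of replicate 3 names it UAS-MJD. Wild type replicates 1 and 3 are labelled with strain CS, while no strain is given for replicate 2. Heads of both groups came from flies aged 2 to 4 days, collected at Zeitgeber time 16 on a light and dark schedule kept for 3 days. No sample carried the driver or the transgene alone, so driver, transgene and strain background cannot be told apart. Because the timeless promoter is active in part of the head's cells and the whole head was measured, more cells of a type and more RNA per cell cannot be told apart either. Whether replicates were independent fly collections is not stated, so p-values measure the spread between these samples, which may be technical. Sex is not stated either.

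Levels are given as normalized log2 of the deposited intensity plus 16, and changes as tim-MJD minus wild type in the same log2 units. A probe set's level is not comparable with that of another probe set. The deposited values may be natural powers of log2 summaries, in which case the changes of bright probe sets are smaller by a factor of about 0.693, with the same direction. The arrays were alike in detection, with 40.2% to 44.4% of probe sets brighter than every one of 23 negative controls. Each group was scanned on a day of its own, so the effects of group and scan day cannot be told apart. Of the fluidics modules, numbers 1 and 2 served a tim-MJD and a wild type array each. The 3' control probe set of eIF-4a exceeded the 5' one by 2.57 to 3.17 log2 units on the tim-MJD arrays and by 3.15, 9.39 and 3.71 on wild type 1, 2 and 3. The 18S ribosomal RNA control read 16.8 to 17.4 on the tim-MJD arrays and 12.7, 12.0 and 16.7 on wild type 1, 2 and 3.

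In tim-MJD heads the lysosomal protease genes cathD and CtsB rose and VhaAC45RP, a relative of a proton pump accessory subunit, fell. The structural subunits of the V-ATPase and the Atg genes that were tested gave no call in either direction. Of the 71 probe sets, 45 were above the highest negative control on all 6 arrays and 22 on none. The 21 probe sets that were not tested were all among the 22. Of the 71 probe sets, 50 passed the filter on low levels and were tested with limma, and 3 of these had an adjusted p under 0.05, 2 higher and 1 lower. This is 6% of the members tested, where 2.48% of all 8379 probe sets tested were called, 1.54% higher and 0.943% lower. An unadjusted p under 0.05 was found for 12 members (24%), 8 higher and 4 lower, against 15.6% of all probe sets tested, 7.70% higher and 7.95% lower. In 13 members (26%) the tim-MJD arrays all lay on one side of the wild type arrays, 9 higher and 4 lower, against 21.9% of all probe sets tested, 10.0% higher and 11.9% lower. The change was above 0 in 21 members and below 0 in 29, where 49.0% of all probe sets tested had a change above 0. The median change of the tested members was -0.03 and that of all probe sets tested was 0. With median centring 16 members were above 0 and 34 below, with a median of -0.17 against -0.02 for all probe sets tested, and with values as deposited 18 were above 0 and 32 below, with a median of -0.15 against 0. The changes of the tested members lay between -1.56 and 1.74.

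**Figure D1:**
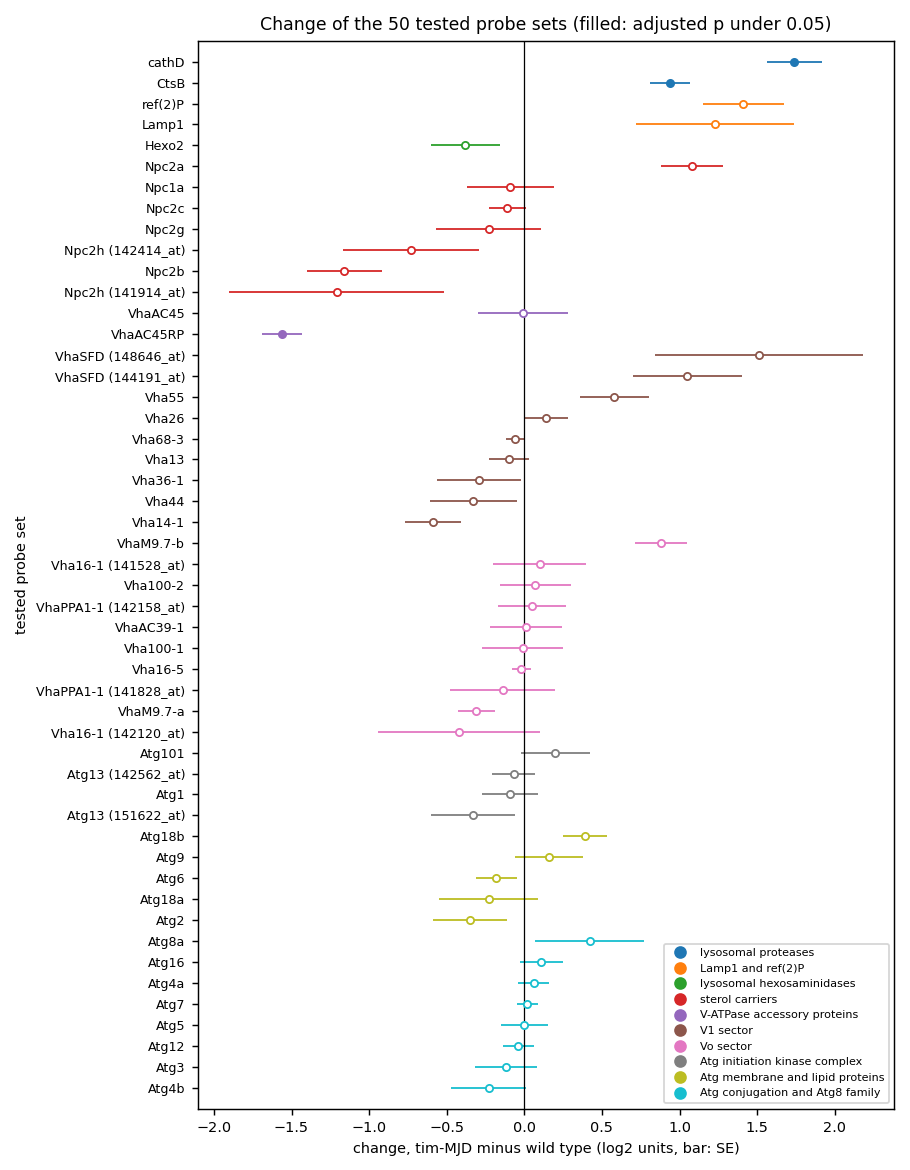
Change of each of the 50 tested probe sets, tim-MJD minus wild type, in log2 units on the horizontal axis, with its standard error as a bar, grouped by role and by colour. Filled points mark an adjusted p under 0.05. The 2 lysosomal proteases stand to the right of 0, VhaAC45RP stands far to the left, and the Atg genes lie between -0.35 and 0.42.

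The proteases were the members with rises past the threshold. cathD encodes cathepsin D, the aspartyl protease of the lysosome, whose loss causes a storage disease of neurons in flies and mammals. It read 13.14, 13.64 and 13.21 on tim-MJD arrays 1 to 3, against 11.83, 11.48 and 11.46 on wild type arrays 1 to 3. The lowest tim-MJD array thus stood above the highest wild type array by more than the range within either group. The means were 13.33 ± 0.27 in tim-MJD and 11.59 ± 0.21 in wild type heads (SD, n = 3 each), a rise of 1.74 ± 0.18 (SE, limma adjusted p = 0.0138), or 3.33-fold on the scale of the deposited values. The rise was 1.66 and 2.17 within fluidics modules 1 and 2. Read as a natural power of a log2 summary, it was 1.21.

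CtsB encodes cathepsin B, a cysteine protease of the same compartment. It read 13.86, 14.22 and 14.03 on the tim-MJD arrays, against 13.06, 13.26 and 12.96 on the wild type arrays, so that these groups did not overlap either. The mean was 14.04 ± 0.18 in tim-MJD and 13.10 ± 0.15 in wild type heads (SD, n = 3 each), a rise of 0.94 ± 0.13 (SE, limma adjusted p = 0.0287), or 1.92-fold on the scale of the deposited values. Within fluidics modules 1 and 2 it was 0.61 and 1.26. Read as a natural power of a log2 summary, the rise of CtsB was 0.65. The cathD call was lost without tim-MJD 3 (adjusted p = 0.0530) or wild type 2 (0.0525), and the CtsB call when any array but tim-MJD 1 was left out (up to 0.0888, without wild type 1). Both calls were lost with the module, the replicate number, the 3' to 5' difference or the 18S signal in the fit, and with median centring. The CtsB call was also lost with values as deposited (limma adjusted p = 0.0598), without a filter (0.0706) and with a variance trend and robust prior (0.059). Both changes stayed positive in all 20 alternatives, of which those for the threshold, the filter, the variance prior and the replicate block could not alter them.

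**Figure D2:**
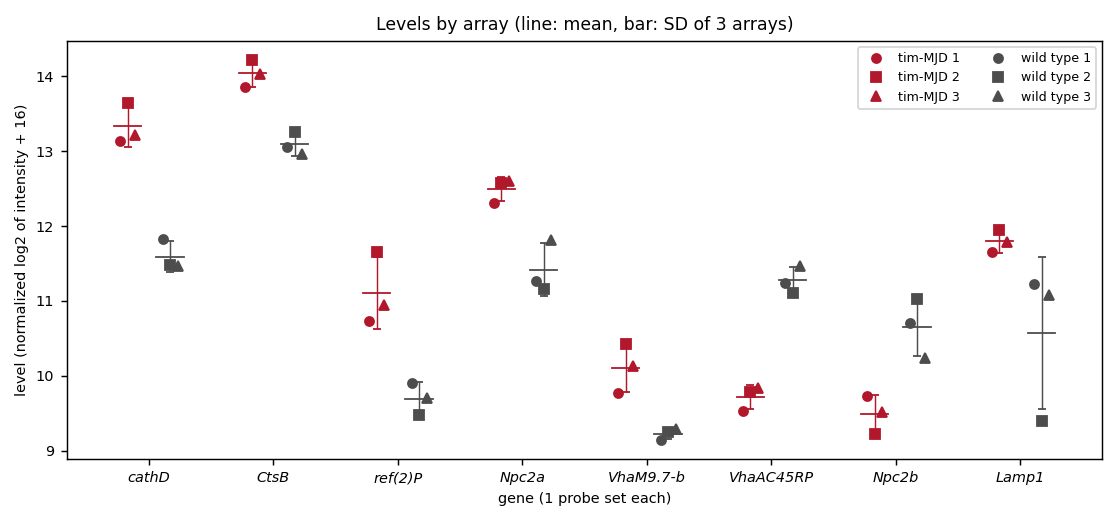
Level of 8 members on each array, in normalized log2 units on the vertical axis, with tim-MJD arrays in red to the left of wild type arrays in grey for each gene. Lines are means and bars are SDs of 3 arrays. The groups do not overlap for any of these genes, and for Lamp1 the wild type mean is pulled down by wild type 2 at 9.40.

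Other digestive genes of the lysosome were followed in a list of 81 further genes of the pathway. Of these, 63 were tested, 2 rose, 0 fell and 61 did not pass in limma. The 2 calls are 3.17% of the genes tested, close to the 2.48% of all probe sets tested. An unadjusted p under 0.05 was found for 9 genes (14.3%), 7 higher and 2 lower, against 15.6% of all probe sets tested, 7.70% higher and 7.95% lower. The groups did not overlap in 11 genes higher and 2 lower, against 10.0% and 11.9% of all probe sets tested. The median change of the list was 0.09, with 41 genes above 0 and 22 below, where 49.0% of all probe sets tested were above 0. With median centring 33 were above 0 and 30 below. CtsK1, a cysteine protease gene, was one of the rises. It read 11.47, 12.02 and 11.58 on the tim-MJD arrays, against 10.37, 10.01 and 9.41 on the wild type arrays (1.76 ± 0.29 SE, adjusted p = 0.0498). Sap-r, whose product is cut into saposins that present sphingolipids to lysosomal hydrolases, was the other. It read 14.06, 13.90 and 14.19 on the tim-MJD arrays, against 13.41, 13.32 and 13.23 on the wild type arrays (0.73 ± 0.10 SE, adjusted p = 0.0293). In both genes every tim-MJD array stood above every wild type array. The count of 2 in this list became 0 without tim-MJD 1, wild type 1 or wild type 2 and 1 without tim-MJD 3 or wild type 3.

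Other cysteine protease genes did not pass. Swim, which encodes a secreted protein of the cathepsin B family, differed by 1.37 ± 0.32 without passing (adjusted p = 0.101), with its highest level of 8.81 on tim-MJD 2. CtsL1, the cathepsin L gene, differed by 0.45 ± 0.19 (adjusted p = 0.350). CtsF and CtsK2, a cathepsin F gene and another cysteine protease gene, differed by 0.02 ± 0.28 and -0.05 ± 0.23. Among the members, Hexo2, a gene for a hexosaminidase that removes terminal amino sugars from glycans, differed by -0.38 ± 0.22 (adjusted p = 0.506). Its tim-MJD arrays 2 and 3 read 8.61 and 8.39, below all wild type arrays (8.98, 9.14 and 9.23), and tim-MJD 1 read 9.19, among them.

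ref(2)P is the fly counterpart of p62, a receptor that binds ubiquitin on cargo and Atg8a on the growing autophagosome. It read 10.73, 11.65 and 10.94 on the tim-MJD arrays, against 9.91, 9.48 and 9.7 on the wild type arrays. The groups did not overlap, and tim-MJD 2 stood apart at the top. The means were 11.11 ± 0.48 in tim-MJD and 9.7 ± 0.21 in wild type heads (SD, n = 3 each). The difference of 1.41 ± 0.26 did not pass (SE, adjusted p = 0.0677). With 60% of probe sets left out as low, in place of 40%, it passed (0.0364).

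Lamp1 encodes a glycoprotein of the lysosomal membrane. It read 11.65, 11.95 and 11.79 on the tim-MJD arrays, against 11.23, 9.40 and 11.08 on the wild type arrays. The difference of 1.23 ± 0.51 did not pass (adjusted p = 0.344), and wild type 2 lay far below the other arrays. Without wild type 2, the array with the largest 3' to 5' difference, Lamp1 differed by 0.65 ± 0.12 (adjusted p = 0.118), and with the 3' to 5' difference in the fit by 0.47 ± 0.14.

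Sterols released in the lysosome leave it through Npc2 proteins, which carry them inside, and Npc1a, which exports them across the membrane. The fly genome holds several Npc2 genes, and 7 of the 10 probe sets of this group were tested. In limma 0 of the 7 passed, with 2 (28.6%) at an unadjusted p under 0.05, in opposite directions, against 15.6% of all probe sets tested. Npc2a read 12.31, 12.58 and 12.60 on the tim-MJD arrays, against 11.27, 11.16 and 11.82 on the wild type arrays (1.08 ± 0.20 SE, adjusted p = 0.0650). Npc2b, which acts in part redundantly with Npc2a in sterol balance, read 9.73, 9.23 and 9.52 on the tim-MJD arrays, against 10.70, 11.03 and 10.24 on the wild type arrays (-1.16 ± 0.24 SE, adjusted p = 0.0791). The groups overlapped in neither gene. Within fluidics modules 1 and 2 the change of Npc2a was 1.15 and 0.76, and that of Npc2b -1.30 and -1.01. Npc2a passed without wild type 3 (adjusted p = 0.0318), with the values as deposited (0.0248) and with 60% of probe sets left out. Npc2b passed in the last of these.

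The other sterol carriers did not pass. Npc1a read 6.77 to 6.95 in tim-MJD and 6.49 to 7.54 in wild type heads, a difference of -0.09 ± 0.28. Npc2c differed by -0.11 ± 0.12. Npc2g differed by -0.23 ± 0.34. Its neighbour on the chromosome, Npc2h, had a pair of probe sets that differed by -1.21 ± 0.69 and -0.73 ± 0.44 without passing. The first of these read 7.57, 6.50 and 6.41 on the tim-MJD arrays, against 7.47, 7.19 and 9.44 on the wild type arrays, and without wild type 3 it differed by -0.51. Within fluidics module 1 both probe sets of Npc2h were higher in tim-MJD (0.38 and 0.63), and within module 2 both were lower (-2.94 and -1.47). Npc2d, Npc2e and Npc2f lay at or below the highest negative control on every array.

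VhaAC45RP, named for its similarity to the V-ATPase accessory protein AC45, had the smallest p of the members. It read 9.53, 9.78 and 9.84 on the tim-MJD arrays, against 11.24, 11.11 and 11.47 on the wild type arrays. No tim-MJD array came within 1 log2 unit of a wild type array. The means were 9.71 ± 0.17 in tim-MJD and 11.27 ± 0.19 in wild type heads (SD, n = 3 each), a fall by 1.56 on the log2 scale (0.13 SE, limma adjusted p = 0.00747). Within fluidics modules 1 and 2 the change was -1.58 and -1.70. The call held whichever array was left out (adjusted p between 0.0190 and 0.0457) and was lost with the module as a block (0.257), a fit with few residual degrees of freedom in which 0 of all 8379 probe sets passed and 980 had an unadjusted p under 0.05. VhaAC45, the AC45 gene itself, read 8.53, 8.90 and 8.77 on the tim-MJD arrays, against 8.39, 9.37 and 8.46 on the wild type arrays. It differed by -0.01 ± 0.29. ATP6AP2, another accessory protein of the pump, lies outside the symbol rule, was chosen after its values were seen and differed by 0.31 ± 0.33 (adjusted p = 0.744).

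No tested subunit of the V1 or Vo sector was called. For the catalytic subunit A the rule found only Vha68-3, which lay below the controls on all arrays, so subunit A was not assessed. Of 30 probe sets of 27 genes, 19 were tested and 0 passed in limma, while 5 (26.3%) had an unadjusted p under 0.05, 3 higher and 2 lower, against 15.6% of all probe sets tested. The changes were above 0 in 9 and below 0 in 10 probe sets, with a median of -0.01. It was -0.17 with values as deposited and -0.20 with median centring, where 5 changes were above 0 and 14 below, and it ran up to 0.10, without wild type 3. Differences beyond 0.5 in either direction were found for subunits H, B and F of V1 and subunit e of Vo.

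In the V1 sector, VhaSFD encodes subunit H, which controls the activity of the assembled pump. Its brighter probe set read 9.86, 10.15 and 10.27 on the tim-MJD arrays, against 9.37, 8.29 and 9.48 on the wild type arrays (1.05 ± 0.35 SE, adjusted p = 0.225). Its dimmer one read 8.91, 8.71 and 9.04 on the tim-MJD arrays, against 8.43, 5.89 and 7.82 on the wild type arrays (1.51 ± 0.67 SE, adjusted p = 0.370). In both, the groups did not overlap and wild type 2 was the lowest array. Without wild type 2 the changes were 0.67 and 0.76, and with the 3' to 5' difference in the fit 0.58 and 0.54. Vha55, the nucleotide-binding B subunit, differed by 0.58 ± 0.22 (adjusted p = 0.296), with wild type 1 among the tim-MJD arrays. Vha14-1, the F subunit of the turning stalk, read 11.14, 11.44 and 11.03 on the tim-MJD arrays, against 11.47, 11.95 and 11.95 on the wild type arrays (-0.59 ± 0.18 SE, adjusted p = 0.193). Vha26 and Vha13, subunits E and G of the outer stalks, differed by 0.14 ± 0.14 and -0.10 ± 0.13. Vha44 and Vha36-1, subunits C and D, differed by -0.33 ± 0.28 and -0.29 ± 0.27.

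In the Vo sector, the leading member was VhaM9.7-b, one of the genes for the small subunit e. It read 9.77, 10.43 and 10.13 on the tim-MJD arrays, against 9.15, 9.25 and 9.29 on the wild type arrays. The wild type arrays lay within 0.2 log2 units of each other and all tim-MJD arrays lay above them. The means were 10.11 ± 0.33 in tim-MJD and 9.23 ± 0.07 in wild type heads (SD, n = 3 each), a difference of 0.88 ± 0.17 that did not pass (SE, adjusted p = 0.0734). It passed without tim-MJD 1 (0.0356). VhaM9.7-a, another gene for subunit e, had a difference of the opposite sign. It read 9.53, 9.89 and 9.49 on the tim-MJD arrays, against 9.92, 9.97 and 9.94 on the wild type arrays (-0.31 ± 0.12 SE, adjusted p = 0.313). The other Vo subunits did not pass. Vha100-1 and Vha100-2, forms of the large subunit a, differed by -0.01 ± 0.26 and 0.07 ± 0.23. VhaAC39-1, subunit d, differed by 0.01 ± 0.23. The probe sets of VhaPPA1-1, subunit c'', differed by 0.05 ± 0.22 and -0.14 ± 0.34. Vha16-1, the proton-carrying subunit c, had probe sets with 0.10 ± 0.30 and -0.42 ± 0.52, of which the second ran from -1.64 with the 18S signal in the fit to 0.14 without wild type 3.

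**Figure D3:**
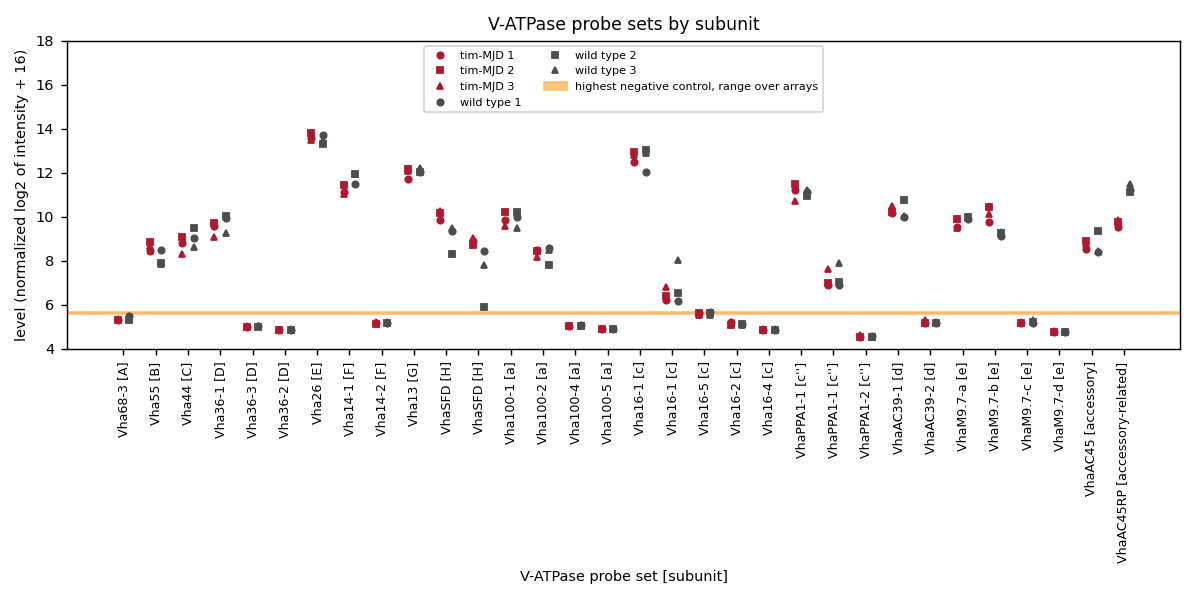
Level of each V-ATPase probe set on each array, in normalized log2 units on the vertical axis, ordered by subunit, with tim-MJD arrays in red to the left of wild type arrays in grey. The orange band is the highest negative control over the 6 arrays. For subunits D, F, c'' and d, 1 gene stands far above the band and the additional copies lie at or below it.

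The flies carry additional copies of several subunits, some of them known for expression enriched in the testis. Most of these copies were at background in both groups. Of the 29 V-ATPase genes, 16 were above the highest negative control on all 6 arrays and 12 on none. For subunit D, Vha36-1 was above it on all arrays and Vha36-2 and Vha36-3 on none. The same held for subunit F with Vha14-1 and Vha14-2, for subunit d with VhaAC39-1 and VhaAC39-2, and for subunit c'' with VhaPPA1-1 and VhaPPA1-2. For subunit e, VhaM9.7-a and VhaM9.7-b were above it and VhaM9.7-c and VhaM9.7-d were not, and for subunit a, Vha100-1 and Vha100-2 were above it and Vha100-4 and Vha100-5 were not. For subunit c, Vha16-1 was above it, Vha16-2 and Vha16-4 were not, and Vha16-5 read 5.55 to 5.62 in tim-MJD and 5.54 to 5.67 in wild type heads, around the control level of 5.59 to 5.69. Vha68-3, a form of the catalytic subunit A, lay below the controls on all arrays. All 7 testis-biased marker genes measured were at control level on all arrays as well. Levels of these copies are bounds set by background and their differences are not detectable here.

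No Atg gene was called. Of 24 probe sets of 20 genes, 17 were tested and 0 passed in limma, with 1 at an unadjusted p under 0.05, against 15.6% of all probe sets tested. Their changes lay between -0.35 and 0.42, with a median of -0.04. Under the alternatives that median ran from -0.08 to 0.05.

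The initiation kinase complex, in which Atg1 is the kinase and Atg13, Atg17 and Atg101 are partners, starts autophagosome formation. Atg1 read 6.53, 6.56 and 6.84 on the tim-MJD arrays, against 7.09, 6.60 and 6.51 on the wild type arrays (-0.09 ± 0.18). The brighter Atg13 probe set differed by -0.33 ± 0.27 (adjusted p = 0.657) and Atg101 by 0.20 ± 0.22 (0.751). Atg17 was at control level on every array. In Atg1, Atg13 and Atg101 the arrays of each group spanned a wider range than the difference between the group means.

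Among the membrane and lipid proteins, Atg18b, one of the phosphoinositide-binding WIPI relatives, was the Atg gene with an unadjusted p under 0.05. It read 5.96, 6.37 and 6.07 on the tim-MJD arrays, against 5.67, 5.93 and 5.62 on the wild type arrays, close to the control level (0.39 ± 0.14 SE, adjusted p = 0.268). Its relative Atg18a read 6.52, 6.76 and 6.45 on the tim-MJD arrays, against 7.52, 6.42 and 6.49 on the wild type arrays, where wild type 1 stood alone at the top. Atg2, which moves lipids to the growing membrane, differed by -0.35 ± 0.24 (adjusted p = 0.588). Atg6, the Beclin relative of the lipid kinase complex, and Atg9, the membrane protein that seeds the structure, differed by -0.18 ± 0.13 and 0.16 ± 0.22.

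Atg8a is the ubiquitin-like protein that is joined to the membrane and binds receptors such as ref(2)P. It read 12.40, 12.66 and 12.67 on the tim-MJD arrays, against 12.01, 12.90 and 11.57 on the wild type arrays. All tim-MJD arrays lay inside the range of the wild type arrays, of which array 2 was the highest and array 3 the lowest. The means were 12.57 ± 0.15 in tim-MJD and 12.16 ± 0.68 in wild type heads (SD, n = 3 each), and the difference of 0.42 ± 0.35 did not pass (SE, adjusted p = 0.667). With 1 array left out it ran from 0.12 without wild type 3 to 0.79 without wild type 2. With the 3' to 5' difference in the fit it was 0.88 (limma adjusted p = 0.19), and with the 18S signal 1.10 (0.329). The conjugation enzymes Atg3 and Atg7 differed by -0.12 ± 0.20 and 0.02 ± 0.07, Atg5 by 0.00 ± 0.15 and Atg12 by -0.04 ± 0.10. The Atg8 proteases Atg4a and Atg4b differed by 0.06 ± 0.10 and -0.23 ± 0.24. Atg16, a scaffold of the conjugation complex, had 1 tested probe set, which passed the filter only through tim-MJD 2 at 5.67. Atg10, Atg8b and Atg14, a partner of Atg6, were at control level on every array.

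**Figure D4:**
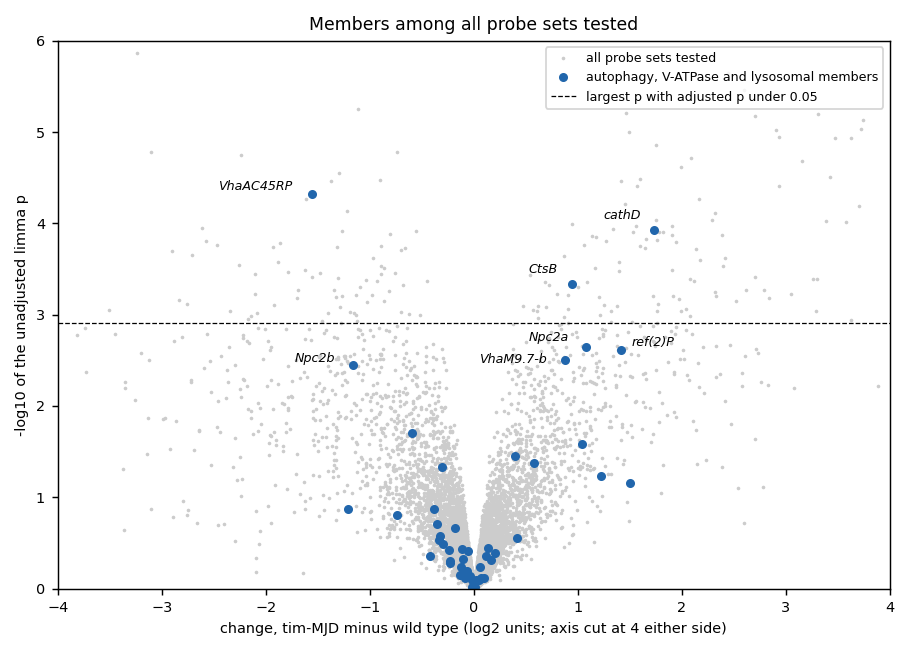
Unadjusted limma p, as -log10 on the vertical axis, against the change, tim-MJD minus wild type, in log2 units, for the member probe sets in blue and all 8379 probe sets tested in grey, with both axes cut. cathD, CtsB and VhaAC45RP lie above the dashed line of the threshold, and ref(2)P, Npc2a, VhaM9.7-b and Npc2b lie under it.

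An adjusted p between 0.05 and 0.1 was found for 4 members, namely Npc2a (0.0650), ref(2)P (0.0677), VhaM9.7-b (0.0734) and Npc2b (0.0791). The wider list of pathway genes held 3 of that kind. An adjusted p under 0.1 was found for 5 higher and 2 lower of the 50 tested members and for 5 of the 63 tested genes of the list. Of all 8379 probe sets tested, 500 were under 0.1 and 208 under 0.05. Rab2, a small GTPase of late autophagosome and lysosome fusion, read 7.45, 7.69 and 7.57 on the tim-MJD arrays, against 6.99, 7.03 and 7.17 on the wild type arrays (0.51 ± 0.09 SE, adjusted p = 0.0608). REPTOR-BP, a transcription factor partner downstream of TOR, differed by -0.75 ± 0.16 (0.0841). Ect3, a beta-galactosidase gene, differed by 0.69 ± 0.15 (0.0951). Mitf, the activator of lysosome and V-ATPase genes, read close to control level, 5.82 to 6.19 in tim-MJD and 5.74 to 6.05 in wild type heads (0.09 ± 0.14).

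The SD of wild type arrays exceeded that of tim-MJD arrays in 36 of the 50 tested members (72%), against 53.9% of all probe sets tested. The median SD of the members was 0.22 in tim-MJD and 0.30 in wild type heads. Replicates of both groups varied for several V-ATPase subunits. Vha44, subunit C, read 8.80, 9.06 and 8.32 on the tim-MJD arrays, against 9.04, 9.49 and 8.65 on the wild type arrays. Vha36-1 read 9.58, 9.73 and 9.06 on the tim-MJD arrays, against 9.95, 10.02 and 9.28 on the wild type arrays. In both genes replicate 2 was the highest and replicate 3 the lowest array of its group. Replicate 3 was lowest in both groups for 5 of the 50 tested members (10%), 4 of them among the 19 tested V1 and Vo probe sets (21.1%), against 13.8% of all probe sets tested.

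Marker genes of cell types that a head holds were read on the same arrays. Over all probe sets tested, 15.6% had an unadjusted p under 0.05 in limma and 2.48% were called. Of 9 hemocyte markers tested 0 passed in limma, with 2 at an unadjusted p under 0.05, both lower, with a median change of -0.07. Their summed intensity was 618 to 851 in tim-MJD and 640 to 788 in wild type heads. Sums of this kind are carried by the brightest probe sets of a list. Of 11 fat body markers tested 1 fell and 0 rose, with 4 at an unadjusted p under 0.05, all lower, and a median of -2.06. Their summed intensity was 44102 to 2265934 in tim-MJD and 2546191 to 3808078 in wild type heads. The low end was tim-MJD 2, where the yolk protein genes Yp1 and Yp2 read 14.72 and 10.02. On tim-MJD 1 they read 20.1 and 18.36, and on tim-MJD 3 20.1 and 18.71. Yp1, Yp2 and Yp3 carried most of the sum. Among the other fat body markers, apolpp (11.30) and Lsd-1 (6.82) were also lowest on tim-MJD 2, while Mtp (7.55) was not. cathD and CtsB were highest on tim-MJD 2, and without that array their changes were 1.58 and 0.83. The cause of this difference between the tim-MJD arrays was not tested. Of 10 glial markers tested 0 passed in limma, with 4 at an unadjusted p under 0.05, all lower, with a median of -0.53. Their summed intensity was 4734 to 8235 in tim-MJD and 11268 to 20884 in wild type heads. Gs2 and Tret1-1, the brightest of them, differed by -1.42 ± 0.39 and -1.44 ± 0.83. The glial marker repo differed by -0.13 ± 0.11, and moody and loco by 0.50 ± 0.26 and 0.51 ± 0.26. Of 7 photoreceptor markers tested 0 passed in limma, with 1 at an unadjusted p under 0.05, with a median of 0.01. Their summed intensity was 475160 to 534376 in tim-MJD and 437039 to 669971 in wild type heads. Of 6 neuron markers tested 0 passed in limma, with 2 at an unadjusted p under 0.05, both higher, with a median of 0.07. Their summed intensity was 1074 to 1816 in tim-MJD and 508 to 693 in wild type heads. The 2 were nSyb (1.63 ± 0.29) and Appl (2.17 ± 0.50), while elav, brp, Syn and cac differed by 0.04, 0.07, 0.06 and 0.02. Of 4 midgut markers tested 0 passed in limma, with 0 at an unadjusted p under 0.05, with a median of -1.53 and a summed intensity of 188 to 482 in tim-MJD and 226 to 1589 in wild type heads. The part of these cell types in the changes of cathD, CtsB and VhaAC45RP was not tested. Defining markers at control level on all arrays were Fbp1 and Fst of the fat body, para of neurons and Jon25Bi of the midgut.

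**Figure D5:**
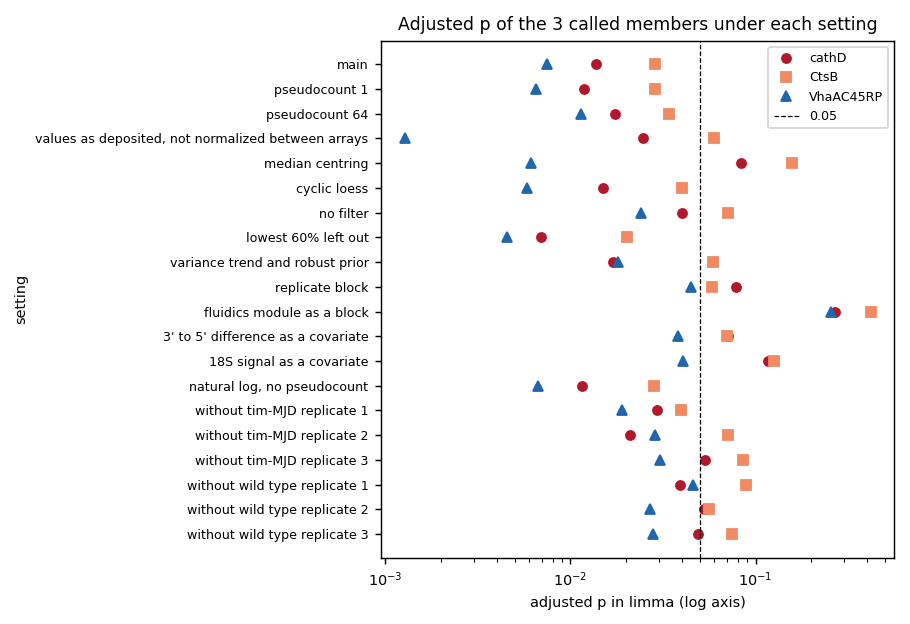
Adjusted limma p of cathD, CtsB and VhaAC45RP on a log axis under each setting listed on the vertical axis, with the threshold of 0.05 dashed. VhaAC45RP passes in every setting shown but the fluidics module block, where its p is 0.257, while cathD and CtsB cross the line in several.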

How the data were processed

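The authors deposited 1 value per probe set and array as a linear intensity, with a probe summary and scale not given in the sources used here. The highest values, 2141111 to 2888298, exceed the 65535 of a 16-bit scan. Of 14010 probe sets in the table, the 44 control probe sets of the array were not tested. Genes were named from the platform annotation, and all 71 member probe sets matched the current gene table. The members and gene lists were chosen with earlier results of these data known.

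Values were quantile normalized between arrays as log2(intensity + 16). The 40% of probe sets with the lowest mean were left out (log2 level under 5.29), which left 8379. Groups were compared with limma 3.58.1 in R 4.3.3 (lmFit, eBayes) with Benjamini-Hochberg adjustment over all of them, and an adjusted p under 0.05 was a call. Tables and figures were made with Python 3.11.15, pandas 2.3.3 and matplotlib 3.10.9. The fit was tested on simulated data, whose outcome is not given here, so nothing about the calls is drawn from it. A probe set was taken as above background on an array where it exceeded the highest negative control, and 3 arrays a group limit the precision.

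Genes named in the text are those past the threshold, cathD, CtsB and VhaAC45RP whatever their values, and, in each role, the largest difference in each direction and the brightest member. Further members are named to account for their role, and these were chosen after their values were seen. Probe sets of 1 gene were kept apart. The 20 alternatives covered the pseudocount, scaling, filter, variance prior, blocks, covariates, threshold and each array left out, and the natural log reading was added after seeing the data.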

Additional observations from a re-analysis of the deposited data

How the results depend on the processing

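VhaAC45RP kept its call in 19 of 20 alternatives, cathD in 13 and CtsB in 7, and the direction of these 3 genes was the same in all 20. The threshold of 0.1 could not lose a call. It and the settings for the filter, the variance prior and the replicate block left the changes of these genes as they were. Their groups did not overlap, so leaving out 1 array could hardly turn a direction. Such settings therefore add little to the count of 20. Of the members, 2 were called higher and 1 lower. The count higher was 0 with median centring, the replicate block, the module block, the 3' to 5' covariate or the 18S covariate, 1 without a filter or with a variance trend and robust prior, and 5 with 60% left out or at a threshold of 0.1. Leaving out 1 array gave 0 to 3. The count lower was 0 with the module block and 2 with 60% left out or at 0.1, and it was 1 whichever array was left out. In the list of further genes, the count of 2 was 1 with a pseudocount of 64, values as deposited, cyclic loess or the variance trend, 0 with median centring, no filter, the replicate block, the module block or either covariate, and 5 at 0.1. Leaving out 1 array gave 0 to 2 there. Over all probe sets, 208 calls became 122 with median centring, 102 without a filter, 387 with 60% left out, 500 at 0.1, 84 with the replicate block, 90 with the 3' to 5' covariate, 37 with the 18S covariate, 0 with the module block (980 at an unadjusted p under 0.05) and 88 to 200 with 1 array left out. The split of 129 higher and 79 lower was 123 and 144 with values as deposited. Some differences that had not passed changed sign. With the 18S covariate, Atg4b was 0.24, Atg101 -0.20, Atg13 0.23 and Atg2 0.02. With the module block Atg101 was -0.05 and Npc2g 0.01, and Npc2g was 0.06 without wild type 1. Leaving out 1 array gave -0.54 to 0.06 for Npc2g and -0.78 to 0.14 for the dimmer Vha16-1 probe set, which was above 0 without wild type 3. The brighter one was -0.10 with values as deposited, -0.12 with median centring, -0.24 with the module block, -0.07 with the 18S covariate, -0.02 without tim-MJD 2 and -0.22 without wild type 1. The cause was not tested. Same-numbered arrays deviated together with correlations of 0.29, 0.05 and 0.30, and differently numbered ones with -0.31 to 0.11. The values for numbers 1 and 3 were the highest of all pairings. The main fit did not pair the samples, and the replicate block is given as an alternative. With it, 1399 of all probe sets tested had an unadjusted limma p under 0.05, against 1311 in the main fit. Whether samples of a number share an effect was not tested. Wild type 2 correlated more with tim-MJD 1 (0.11) than with tim-MJD 2. With the replicate block cathD had an adjusted p of 0.0784, CtsB 0.0583 and VhaAC45RP 0.0446.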
